A study of Rattus norvegicus with 15 samples.

Results

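10 genes of the late steps of cell division were followed through rat hepatocytes of different ploidy: Ect2, Prc1, Anln, Racgap1, Kif23, Kif20a, Aurkb, Cep55, Cit and Rhoa. They were taken by name from the array, where 13 probes carry 1 of these 10 names among 36304 named features. The cells came from female Wistar rats and were parted by flow cytometry on their Hoechst33342 signal, which reads DNA content, into fractions of 2c (an unreplicated diploid cell), 4c and 8c. Each of 5 experiments gave 1 one-colour (Cy3) array for each of the 3 fractions, so that n = 5 per group and 15 arrays in all. Rats of 12, 14, 6, 5 and 6 weeks of age were used for experiments 1 to 5; how many animals each took is not stated. DNA content does not part a cell of higher ploidy from one of the next lower ploidy that has copied its DNA, so a diploid cell in G2 falls into 4c and a tetraploid one into 8c, and no gate is described that separates them.

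Cytokinesis divides the cell once the chromosomes have parted. The central spindle, a bundle of overlapping microtubules built by Prc1 and the kinesins Kif23 and Kif20a, marks the plane of division, and there Ect2, held by Racgap1, switches on the small GTPase RhoA. Active RhoA drives a ring of actin and myosin that anillin (Anln) and citron kinase (Cit) help to organise, and Cep55 then recruits the machinery that cuts the last bridge. Hepatocytes of the growing rodent liver are known for leaving this step out, which gives cells with 2 nuclei and, after a further cycle, cells of higher ploidy.

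The promoters of 8 of the 10 genes are in the RefSeq table used here (GRCr8); Racgap1 and Aurkb have no entry. They are shown because 6 of them belong to the genes that were high in the same fraction. Many genes of late cell division carry a short element, TTTGAA or TTTAAA, near the start of transcription, often with a CCAAT box upstream. Each line gives 100 bases before the start, 5′ to 3′, and capitals mark TTTGAA or TTTAAA and the CCAAT box on either strand, so that a match may be printed as its reverse complement. For Ect2 the stretch runs from base 180 to base 81 before the start, and for the others from base 100 to base 1.
Ect2, chr2:111966707-111966806, minus strand: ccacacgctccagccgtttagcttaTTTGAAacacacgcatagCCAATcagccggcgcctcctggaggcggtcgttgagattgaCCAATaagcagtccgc
Prc1, chr1:143659381-143659480, plus strand: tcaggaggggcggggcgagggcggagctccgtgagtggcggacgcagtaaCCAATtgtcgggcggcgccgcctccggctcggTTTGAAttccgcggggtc
Anln, chr8:29197514-29197613, minus strand: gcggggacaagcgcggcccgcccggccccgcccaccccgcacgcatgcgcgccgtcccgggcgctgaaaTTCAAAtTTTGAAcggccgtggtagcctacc
Kif23, chr8:71320585-71320684, minus strand: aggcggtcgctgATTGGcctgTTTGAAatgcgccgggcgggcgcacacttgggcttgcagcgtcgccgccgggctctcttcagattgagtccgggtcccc
Kif20a, chr18:26504322-26504421, plus strand: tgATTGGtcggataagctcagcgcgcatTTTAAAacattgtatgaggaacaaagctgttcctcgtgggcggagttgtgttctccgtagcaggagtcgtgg
Cep55, chr1:245245263-245245362, plus strand: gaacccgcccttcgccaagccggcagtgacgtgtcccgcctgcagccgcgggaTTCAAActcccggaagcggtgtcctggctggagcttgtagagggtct
All 8 promoters held TTTGAA or TTTAAA on either strand within 250 bases of the start, against 25.4% of the 33469 promoters of the table. Within 100 bases the share was 7 of the 8, all but Ect2, against 9.76%. The match nearest the start began 18 bases before it in Prc1, 24 in Anln, 47 in Cep55, 72 in Kif20a and 79 in Kif23. Rhoa, which did not share the pattern described below, and Cit, which was too dim to be judged, had a match too, beginning 34 and 96 bases before the start. CCAAT was found within 250 bases in 5 of the 8, against 34.0%. These matches describe the letters only.

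Each gene was read through probes of 60 bases, and those of Kif23, Aurkb, Cit and Rhoa are given. Each of these 4 rests on 1 probe that was dim in some or all fractions or passed no test. Ect2, Kif20a and Cep55 rest on 1 probe each as well, dim on some arrays, and their bases are not printed. Positions are those of the array files (rn4).
Kif23, chr8:66052647-66052706, minus strand: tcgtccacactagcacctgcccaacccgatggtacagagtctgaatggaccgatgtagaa
Aurkb, chr10:55801393-55801534, plus strand: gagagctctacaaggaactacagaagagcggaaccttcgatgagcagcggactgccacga
Cit, chr12:41865182-41865241, minus strand: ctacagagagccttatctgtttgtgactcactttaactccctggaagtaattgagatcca
Rhoa, chr16_random:1043046-1043105, plus strand: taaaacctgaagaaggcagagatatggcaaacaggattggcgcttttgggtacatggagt
The Aurkb probe spans 142 bases of the genome for its 60, and the Rhoa probe lies on a contig that rn4 leaves unplaced on chromosome 16, while RefSeq has the gene on chromosome 8 of GRCr8. Of the other members, Ect2 was read at chr2:112969387-112969446, Prc1 at chr1:136133173-136133232, Anln at chr8:21641550-21641609, Racgap1 at chr7:138366661-138366720, Kif20a at chr18:27108170-27108229 and Cep55 at chr1:242398200-242398259. Prc1 had a second probe and Racgap1 had 2 more.

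On the arrays, 39.6% to 47.4% of 45598 probes were well above background, the flag the scanner software sets, and no spot was saturated. Levels are log2 intensities on which 0 is the 75th percentile of an array, so they are shares of the RNA labelled and not amounts per cell. Testing needed a probe to carry that flag on 5 or more of the 15 arrays. The hepatocyte markers (Alb and 9 others) were all well above background on every array, with a median level between 5.93 and 6.56, and 0 of 10 differed in any comparison (limma; 0 at an unadjusted p under 0.05). Acinar (pancreatic) transcripts stood out on 6 arrays, on which 11 of 12 markers were above background against 3 or 4 on the other 9. These were the 2c and 8c arrays of experiment 1, all 3 arrays of experiment 2 and the 8c array of experiment 3. Markers of other liver cells were highest in 2c and are given with the results they touch. In sorted bulk samples, fewer cells of a type and less RNA per cell cannot be told apart.

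The machinery of the central spindle and of the RhoA switch was high in 8c cells. Ect2, Prc1, Anln, Racgap1, Kif23, Kif20a and Cep55 rose in 8c against 2c and in 8c against 4c, by 0.91 to 3.12 and by 1.19 to 4.04 on the log2 scale. Rhoa did not pass in any comparison. Aurkb was bright enough to be seen in 8c only, and Cit nowhere, so neither was tested. Of all tested features, 0.807% were higher in 8c than in 2c (1.56% lower) and 0.638% higher in 8c than in 4c (0.0117% lower) at an adjusted p under 0.05 (limma, Benjamini-Hochberg over 17096 features), beside 7 of the 8 tested members in both. The median difference of the 8 was 2.25 against 2c and 2.38 against 4c, or 1.68 and 1.91 with dim arrays set to the floor (the lowest level on an array that is still well above background), while the median of all features was -0.02 and 0.004. The filter lets in a gene that is bright in 8c alone, so the count says little about members that were dim in the other fractions, where 33 of the 70 values of the 7 genes were not well above background.

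**Figure D1:**
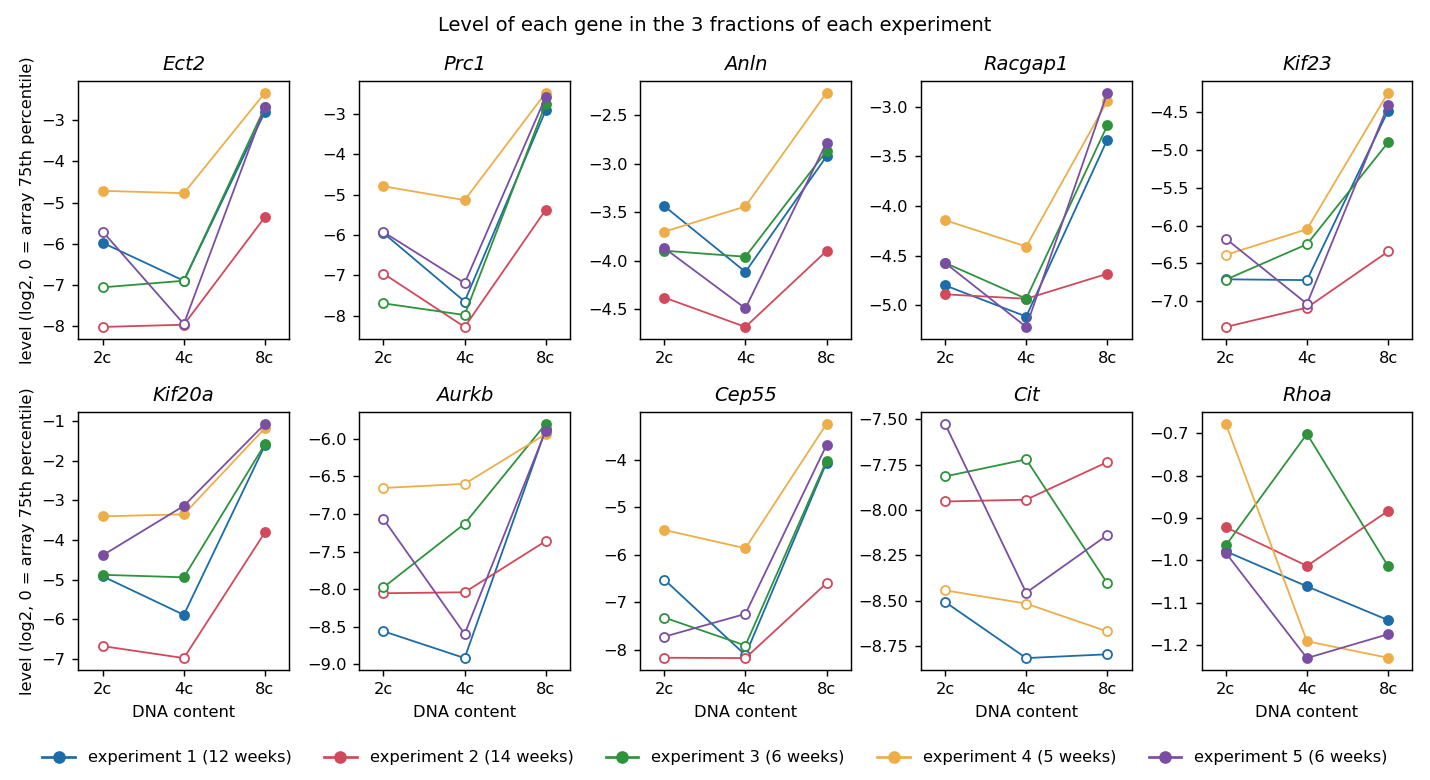
Level of each of the 10 genes (y axis, log2, 0 = the array's 75th percentile; a separate scale per gene) in 2c, 4c and 8c cells (x axis), with 1 line for each experiment; open points were not well above background. Every line of Ect2, Prc1, Anln, Racgap1, Kif23, Kif20a, Aurkb and Cep55 has its highest point in 8c, an open one for Kif23, Aurkb and Cep55 in experiment 2, and in these 8 genes the 8c point of experiment 2 lies below those of the other experiments.

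Ect2, the exchange factor that loads RhoA with GTP, had levels in experiments 1 to 5 of -5.98, -8.01, -7.05, -4.72 and -5.70 in 2c, of -6.89, -7.96, -6.89, -4.77 and -7.94 in 4c, and of -2.80, -5.35, -2.69, -2.34 and -2.68 in 8c. It was well above background on every 8c array, but only in experiments 1 and 4 in 2c and in experiment 4 in 4c. The 8c value was the highest of its experiment in all 5, and the groups overlapped only through the 8c array of experiment 2, which lay below the 2c and 4c arrays of experiment 4. The difference was 3.12 ± 0.40 (SE) in 8c against 2c, an 8.69-fold change (adjusted p = 0.00402, limma), or 6.34-fold with the 3 dim 2c arrays at their floor. Against 4c it was 3.72 ± 0.40 (adjusted p = 0.00149, limma), or 8.21-fold with the 4 dim 4c arrays at their floor.

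Racgap1, the GTPase-activating partner that anchors Ect2 at the midzone, had levels of -4.80, -4.89, -4.57, -4.14 and -4.57 in 2c, of -5.11, -4.93, -4.93, -4.41 and -5.22 in 4c, and of -3.33, -4.68, -3.19, -2.94 and -2.86 in 8c. It was above background on all 15 arrays, and 4c was the lowest fraction and 8c the highest in all 5 experiments. In experiment 2 the 3 fractions nearly met. The fitted difference was 1.19 ± 0.23 against 2c (2.29-fold, adjusted p = 0.0271, limma) and 1.52 ± 0.23 against 4c (adjusted p = 0.0153, limma). Its other 2 probes, each above background on 6 of the 15 arrays, differed by 2.47 ± 0.51 and 2.38 ± 0.38 against 2c, so the probe that stands for the gene gave the smallest change. The 8c against 2c call of Racgap1 was lost without experiment 1, 3, 4 or 5 in turn (adjusted p = 0.112 to 0.163, limma), with differences of 1.06 to 1.19. The same 4 omissions ended the call against 4c (adjusted p = 0.116 to 0.164, limma).

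Rhoa, the GTPase itself, had levels of -0.98, -0.92, -0.96, -0.68 and -0.98 in 2c, of -1.06, -1.01, -0.70, -1.19 and -1.23 in 4c, and of -1.14, -0.88, -1.01, -1.23 and -1.17 in 8c. All 15 values lay between -1.23 and -0.68, and the 3 groups overlapped. The difference was -0.18 in 8c against 2c, with a 95% confidence interval of -0.41 to 0.05 (adjusted p = 0.454, limma), and -0.05 against 4c, with an interval of -0.28 to 0.18 (adjusted p = 0.925, limma). In 8c against 2c the interval ends below the change of any of the 7 genes that rose.

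Prc1, the bundler of antiparallel microtubules, had levels of -5.95, -6.95, -7.69, -4.79 and -5.92 in 2c, of -7.64, -8.28, -7.98, -5.13 and -7.19 in 4c, and of -2.90, -5.37, -2.74, -2.47 and -2.57 in 8c. All 8c arrays were above background, with 2 in 2c (experiments 1 and 4) and 1 in 4c (experiment 4). The order of 2c and 4c is not resolved where both were dim. The difference was 3.05 ± 0.42 against 2c (8.29-fold, adjusted p = 0.00574, limma), 6.41-fold with the floor, and 4.04 ± 0.42 against 4c (adjusted p = 0.00131, limma), 8.81-fold with the floor. The call against 2c was lost without experiment 5 (adjusted p = 0.0527, limma). A second Prc1 probe differed by 2.51 ± 0.57 and 2.87 ± 0.57.

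Kif23, the kinesin that forms the centralspindlin complex with Racgap1, had 8c levels of -4.49, -6.34, -4.91, -4.25 and -4.42, all but experiment 2 above background. None of its 2c levels of -6.71, -7.34, -6.71, -6.39 and -6.17 was well above background. Nor were its 4c levels of -6.72, -7.08, -6.25 and -7.03 in experiments 1, 2, 3 and 5, while experiment 4 was, at -6.05. In the 4 experiments where it was measured in 8c, that value was the highest; in experiment 2 no fraction was above background. With the floor Kif23 was 2.71-fold higher in 8c than in 2c (fitted difference 1.78 ± 0.24, adjusted p = 0.00505, limma). The dim 8c array of experiment 2 entered that fold at its own signal, so the fold is not a lower bound. Against 4c the fitted difference was 1.74 ± 0.24 (adjusted p = 0.00801, limma), or 2.93-fold with the floor. This call was lost with the floor (adjusted p = 0.0594, limma) and without experiment 1, 3 or 4 in turn (adjusted p = 0.0539 to 0.0931, limma).

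Kif20a, the kinesin that carries the passenger complex to the midzone, had levels of -4.92, -6.68, -4.88, -3.41 and -4.39 in 2c, of -5.89, -6.98, -4.94, -3.35 and -3.14 in 4c, and of -1.61, -3.81, -1.58, -1.18 and -1.07 in 8c. Only the 2c and 4c arrays of experiment 2 were dim. The 2c and 4c groups lay over each other, and 8c was higher by 3.01 ± 0.30 against 2c (8.04-fold, adjusted p = 0.00124, limma) and by 3.01 ± 0.30 against 4c (adjusted p = 0.00106, limma). With the floor the folds were 7.76 and 7.45.

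Aurkb, the kinase of the passenger complex, was above background on 4 arrays in all, the 8c arrays of experiments 1, 3, 4 and 5, at -5.87, -5.80, -5.94 and -5.89. The 8c array of experiment 2 was dim at -7.36, as were all 2c and 4c arrays, and the gene missed the filter of 5 arrays. Its 8c mean was -6.17 ± 0.67 against -7.66 ± 0.78 in 2c and -7.86 ± 0.98 in 4c (SD, n = 5). Each 2c or 4c array was set to the higher of its floor and its own signal. The 8c arrays kept their own values, the dim one included. On this scale Aurkb was 1.15-fold higher in 8c than in 2c and 1.38-fold higher than in 4c, with no test.

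Anln, the scaffold of the contractile ring, was above background on all 15 arrays, with levels of -3.44, -4.38, -3.90, -3.70 and -3.87 in 2c, of -4.11, -4.68, -3.96, -3.44 and -4.49 in 4c, and of -2.92, -3.90, -2.87, -2.27 and -2.78 in 8c. It is measured by 10 spots per array, of which 9 or 10 were kept after outlier spots were left out. The SD of the kept spots had a median of 0.13 on the log2 scale. The 8c value was the highest of each experiment, and experiments 1 and 2 had the smaller steps against 2c. The difference was 0.91 ± 0.16 against 2c (1.88-fold, adjusted p = 0.0161, limma) and 1.19 ± 0.16 against 4c (adjusted p = 0.00623, limma), the smallest of the 7. The call against 2c was lost without experiment 3, 4 or 5 in turn (adjusted p = 0.0588 to 0.0812, limma), and the call against 4c without experiment 3 or 5 (adjusted p = 0.0600 and 0.0590).

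Cit, the kinase that links the ring to the midbody, was not well above background on any of the 15 arrays, where its levels ran between -8.82 and -7.53. No fold is given. Cep55, which brings in the abscission machinery at the midbody, had levels of -6.52, -8.17, -7.32, -5.48 and -7.73 in 2c, of -8.11, -8.18, -7.91, -5.86 and -7.25 in 4c, and of -4.06, -6.60, -4.02, -3.25 and -3.69 in 8c. In 2c and in 4c only experiment 4 was above background, and in 8c all but experiment 2. The difference was 2.72 ± 0.37 against 2c (adjusted p = 0.00522, limma), 3.51-fold with the floor, and 3.14 ± 0.37 against 4c (adjusted p = 0.00289, limma), 4.50-fold with the floor. The dim 8c array of experiment 2 entered both folds at its own signal, so they are not lower bounds.

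**Figure D2:**
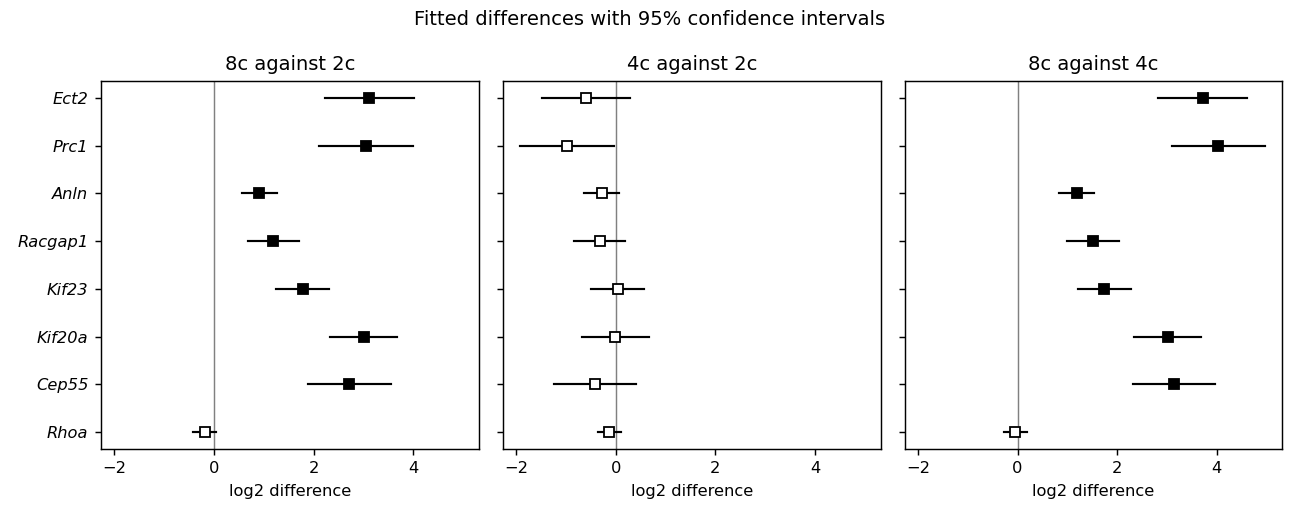
Fitted log2 differences (x axis; squares, filled where the adjusted p was under 0.05) with 95% confidence intervals (lines) for the 8 tested genes, with 1 panel for each pair of fractions. The 7 intervals above Rhoa lie to the right of 0 in both 8c comparisons, and the intervals of 8c against 2c and 8c against 4c rest on the same 8c arrays.

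In 4c against 2c, 0 of the 8 tested members passed (limma; lowest adjusted p = 0.294, 1 member at an unadjusted p under 0.05), where 0.263% of all tested features were higher and 1.01% lower. The 3 comparisons share arrays, so their values are not independent. Prc1 differed by -0.98 (95% confidence interval -1.92 to -0.04), Ect2 by -0.60, Cep55 by -0.42, Racgap1 by -0.33, Anln by -0.28, Rhoa by -0.13, Kif20a by -0.01 and Kif23 by 0.04. The intervals of Ect2 (-1.49 to 0.29), Cep55 (-1.24 to 0.41) and Kif20a (-0.68 to 0.67) hold changes of over 1.5-fold in at least 1 direction, so these arrays bound the 4c step loosely. Of the 10 arrays compared, 7 were dim for Prc1, 7 for Ect2 and 8 for Cep55, and with dim arrays set to the floor these genes differed by -0.46, -0.37 and -0.36. Where both arrays of an experiment were dim, such a value can reflect their floors, which in experiment 5 were -5.96 in 2c and -6.99 in 4c. It does not settle the order of 2c and 4c. Racgap1, above background on every array, was lower in 4c in 5 of 5 experiments, as were 8.61% of all features.

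Within experiments, 33 of the 35 differences between fractions rest on an 8c value above background, all but those of Kif23 and Cep55 in experiment 2, where no fraction was. In all 33 the 8c value lay above the 2c value, and in all 33 above the 4c value, also with dim arrays set to the higher of floor and signal. The 7 genes were called from these same arrays and move together, so these counts are a description and no separate support. On the signals as they stand, dim ones included, 7.17% of all features were higher in 8c than in 2c in all 5 experiments, and 8.81% higher than in 4c. The differences ran between 0.21 (Racgap1, experiment 2) and 4.96 (Prc1, experiment 3) against 2c, and between 0.25 (Racgap1, experiment 2) and 5.26 (Ect2, experiment 5) against 4c, the upper ends being set against dim 2c and 4c arrays. Experiment 2 had the smallest step against 2c for 5 of the 7 genes, and experiment 4, whose 2c and 4c cells had the highest levels of most of them, for the other 2. The groups of all 7 overlapped in both comparisons, where 0.474% and 0.334% of all features did not overlap and were higher in 8c than in 2c and 4c.

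**Figure D3:**
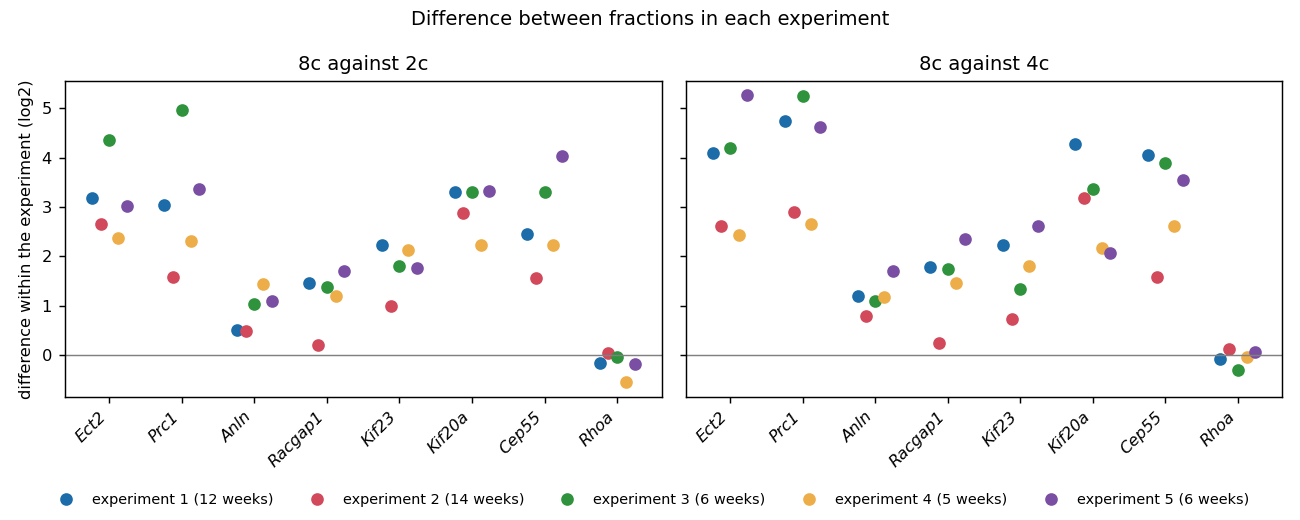
Difference between fractions within each experiment (y axis, log2) for the 8 tested genes (x axis), 8c against 2c on the left and 8c against 4c on the right, with 1 point per experiment and the age of the rats in the legend. All points of the 7 genes left of Rhoa lie above 0, though those of Kif23 and Cep55 in experiment 2 come from arrays that were all dim, and experiment 2 gives the lowest point for 5 genes on the left and 4 on the right.

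The calls rest on comparing fractions within an experiment. Without the experiment as a block, 0 of the 7 passed in 8c against 2c (adjusted p = 0.0615 to 0.394, limma; 7 at an unadjusted p under 0.05) and 0 of the 7 in 8c against 4c (adjusted p = 0.0754 to 0.332). The differences themselves stay as given, since every experiment holds all fractions. Without the 6 arrays rich in acinar transcripts, the only 8c arrays left were those of experiments 4 and 5. The 7 genes were still higher in 8c than in 2c, by 1.28 to 3.03, with 0 passing (adjusted p = 0.208 to 0.457, limma). All 7 stood at an unadjusted p under 0.05, and 0 of all features passed on the 9 arrays left. The same holds for the 3 experiments on rats of 5 or 6 weeks, where the 7 differed by 1.18 to 3.54 with 0 passing (adjusted p = 0.0591 to 0.148, limma; 7 at an unadjusted p under 0.05) and 9 of all features did. A model-based background correction (normexp), which adds an offset of 50 to every signal, left 3 of the 7 passing in both comparisons: Kif20a (1.34 and 1.38), Prc1 (0.89 and 1.13) and Ect2 (0.81 and 1.01). Under it Anln, Racgap1, Kif23 and Cep55 differed by 0.34, 0.36, 0.17 and 0.47 against 2c (adjusted p = 0.0966 to 0.465, limma), all still higher in 8c.

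The arrays lie on 2 slides, and only experiment 3 is split between them, with its 8c array on slide 2 beside experiments 4 and 5. With the slide as block in place of the experiment, 3 of the 7 passed in 8c against 2c and 4 in 8c against 4c. Within slide 1 the differences were 0.57 to 3.19 and within slide 2 1.26 to 3.13, again with 0 passing on either slide (limma; 6 and 7 at an unadjusted p under 0.05).

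The experiments differ in the age of the rats. The 8c minus 2c difference changed by between -0.16 (Prc1) and 0.03 (Rhoa) per week of age on the log2 scale, and 0 of 8 members and 0 (0%) of all features passed (limma; lowest adjusted p of a member 0.959; 385 features with a positive and 437 with a negative slope at an unadjusted p under 0.05). At an unadjusted p under 0.05 stood 1 member, Anln, at -0.09 ± 0.04 per week. Experiments 1 and 2 are the only ones on rats over 6 weeks and hold 5 of the 6 acinar-rich arrays, so age and these transcripts cannot be told apart.

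Among other passenger complex and midzone genes, 4 of 6 tested (11 listed) rose in 8c against 2c and 4 in 8c against 4c. Of all features, 0.807% and 0.638% were higher. The median of the 6 was 1.67 and 2.36, or 1.43 and 1.88 with dim arrays set to the floor. The filter's limit on such counts, given above, holds here too. Plk1, the kinase that prepares the site for Ect2, differed by 3.13 ± 0.30 and 3.53 ± 0.30, and Nusap1, a spindle microtubule binder, by 2.87 ± 0.26 and 3.26 ± 0.26. Incenp, the scaffold of the passenger complex, differed by 1.23 ± 0.23 and 2.26 ± 0.23, and Birc5 (survivin), its small subunit, rose by 1.83 ± 0.36 in 8c against 2c but did not pass against 4c (1.73, adjusted p = 0.0892, limma). Kif20b, a midzone kinesin, was above background on 4 of the 5 8c arrays and on 0 of the 5 4c arrays. With the floor it was 2.92-fold higher in 8c than in 4c (fitted difference 2.45 ± 0.45). It did not pass against 2c (1.51, adjusted p = 0.14, limma), where the fold was 2.07 with the floor. The dim 8c array of Kif20b entered both folds at its own signal, so they are not lower bounds. The comparisons share the 8c arrays and the difference between them was not tested. In 4c against 2c 0 of the 6 passed (limma; 1 at an unadjusted p under 0.05).

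Of the contractile ring and septins, 0 of 19 tested genes passed in any of the 3 comparisons (23 listed; limma; 5 at an unadjusted p under 0.05 in 8c against 2c, 3 of them higher). The brightest were Myh9, the heavy chain of non-muscle myosin, at -0.07 ± 0.09, and Diaph1, a formin that grows actin filaments, at 0.13 ± 0.09 in 8c against 2c. The median was -0.01 against 2c and 0.03 against 4c. 3 ring genes that did not pass are named after their values were seen: Iqgap3, Diaph3 and Arhgap11a differed by 2.41 (adjusted p = 0.0528), 1.94 (adjusted p = 0.114) and 1.58 (adjusted p = 0.107) in 8c against 2c (limma), while the other 16 lay between -0.84 and 0.23. They were above background on 4 of 5 8c arrays and on 1, 0 and 1 of the 2c arrays, so these differences rest on dim 2c signals. With the floor Iqgap3 was 2.69-fold, Diaph3 1.86-fold and Arhgap11a 1.42-fold higher in 8c. The dim 8c array of each gene entered at its own signal, so these folds are not lower bounds.

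Of the abscission genes, which include subunits of the ESCRT-III complex, 0 of 20 tested passed in any comparison (limma, 21 listed). In 8c against 2c, 0 stood at an unadjusted p under 0.05, with a median of -0.03 and all 20 between -0.41 and 0.13. Chmp5 and Chmp1a, the brightest, differed by -0.03 ± 0.07 and 0.13 ± 0.07. The 5 listed targets of miR-122, a microRNA known in the mouse to promote hepatocyte polyploidy, also gave 0 calls (limma; 0 at an unadjusted p under 0.05), with Mapre1 at 0.04 ± 0.07 and Nedd4l at -0.05 ± 0.10 in 8c against 2c. Of 7 tested regulators of transcription linked to ploidy or to late cell cycle genes, 1 rose. Of all features, 0.807% were higher in 8c than in 2c and 0.638% higher than in 4c. In 8c against 2c, 3 stood at an unadjusted p under 0.05 (limma), 2 higher and 1 lower. Foxm1, an activator of mitotic genes, differed by 1.105 ± 0.19 against 2c (adjusted p = 0.0156, limma) and 1.34 ± 0.19 against 4c (adjusted p = 0.00975). Named after their values were seen, Mybl2 differed by 1.27 (adjusted p = 0.0981) and E2f1 by -0.65 (adjusted p = 0.134) in 8c against 2c (limma). Mybl2 was above background on 5 8c arrays but on 0 2c and 0 4c arrays, and was 1.60-fold higher in 8c than in 2c with the floor.

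**Figure D4:**
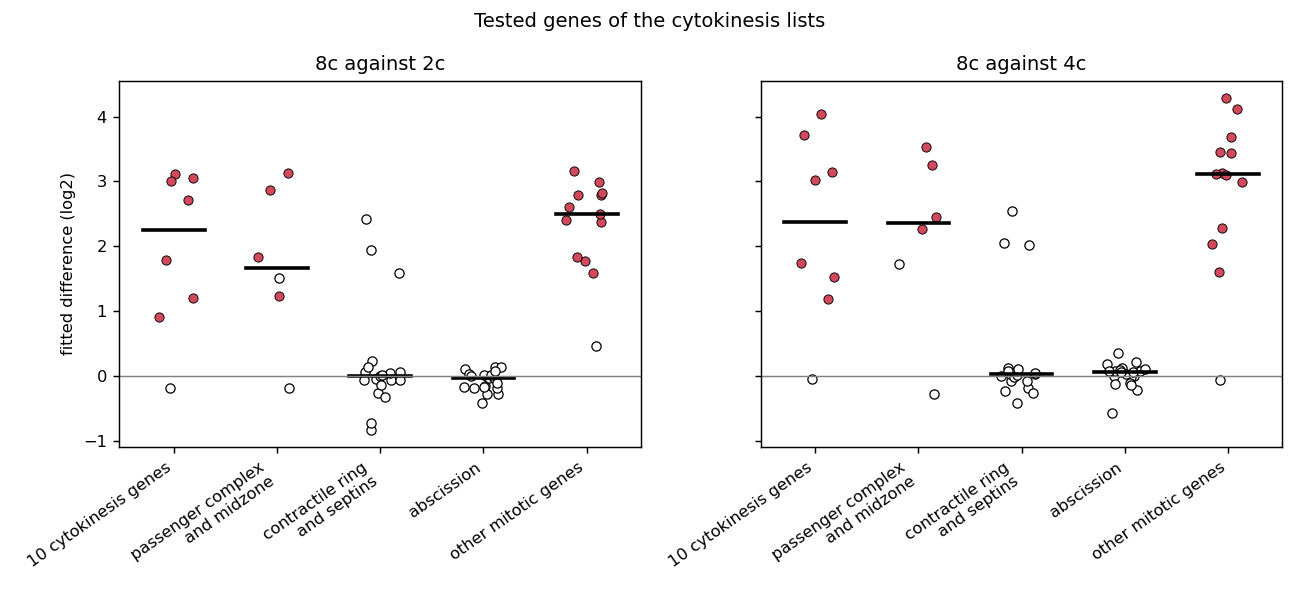
Fitted log2 difference (y axis) of each tested gene in 5 lists (x axis), 8c against 2c on the left and 8c against 4c on the right; filled points passed at an adjusted p under 0.05, open points did not, and bars are medians. The cytokinesis genes, the passenger and midzone genes and the mitotic genes lie mostly above 1, while ring and abscission genes gather at 0.

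The high 8c level was shared with most of the other mitotic genes tested. Of 13 tested (18 listed), 12 rose in 8c against 2c and 12 against 4c, beside 0.807% and 0.638% of all features. The exception was Aurka, named after its values were seen, the brightest of the 13 and above background on every array. Aurka differed by 0.46 against 2c (adjusted p = 0.24, limma) and by -0.06 against 4c (adjusted p = 0.946, limma). The median of the 13 was 2.50 and 3.11, or 2.19 and 2.52 with dim arrays set to the floor. Here too the filter lets in a gene that is bright in 8c alone. Ttk, Ndc80 and Nuf2, named after their values were seen, were each above background on 4 arrays of 8c, 1 of 4c and 1 of 2c. Cdk1, the master kinase of mitosis, differed by 2.99 ± 0.34 and 4.29 ± 0.34, and Mki67, the proliferation marker, by 2.37 ± 0.24 and 3.12 ± 0.24. In 4c against 2c they differed by -1.30 and -0.75 without passing (adjusted p = 0.106 and 0.165, limma). Over the 15 arrays, with each experiment centred, levels of the 7 genes ran together, with Pearson's r between 0.82 and 0.998 over the 21 pairs, and Rhoa had r = -0.32 with the median of the tested members. The 5 genes most like that median were Tubb6 (r = 0.993), Spag5 (0.992), Troap (0.991), Foxm1 (0.991) and Espl1 (0.990). Their fitted differences in 8c against 2c were 2.53, 3.07, 3.51, 1.105 and 2.39, those of Troap and Espl1 against mostly dim 2c arrays. The arrays share samples, scaling and the 8c step itself, so these r values are a description.

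Markers of other liver cells moved with the 2c fraction. Of Kupffer cell markers, 7 of 8 tested were lower in 8c than in 2c, their summed level spanning -2.48 to -0.81 in 8c and -0.37 to 3.90 in 2c; Clec4f, a Kupffer cell lectin, differed by -5.16 (adjusted p = 0.00875, limma). Of stellate cell markers 5 of 7 were lower, Colec11 by -5.06, with a summed level of -1.89 to -0.23 in 8c and 0.15 to 3.35 in 2c. Pdgfrb, named after its values were seen, lay the other way at 0.23 without passing (adjusted p = 0.263, limma). Of endothelial markers 3 of 6 were lower, with a summed level of -3.19 to -1.80 in 8c and -1.60 to 0.96 in 2c, and Stab2 differed by -2.32 (adjusted p = 0.222, limma). In 8c against 4c, where the 7 genes rose as well, 0 of these 21 markers passed (limma; 2 at an unadjusted p under 0.05). The 3 tested lymphocyte markers lay between -0.08 and 0.02, and Alb differed by -0.14 (adjusted p = 0.687). Of acinar markers 0 of 11 passed in 8c against 2c (limma, 0 at an unadjusted p under 0.05), Cpa1 at 0.70. Their summed level was 0.54 to 8.69 in 8c, 0.32 to 6.77 in 4c and 0.19 to 9.58 in 2c. In 8c against 4c all 11 were higher, by 0.76 to 4.22 with a median of 3.12. There too 0 passed (limma, 1 at an unadjusted p under 0.05), so acinar transcripts were not even between 8c and 4c. The part of these cells in the members' levels was not tested beyond the arrays left out above.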

How the data were processed

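Spots were quantified with Agilent Feature Extraction, version 11.5.1.1 per the file headers and 10.7.3.1 per the submitters' processing notes. The deposited intensity used here is the authors' processed signal, background-subtracted and not normalized between arrays, and the deposited flags (other values) mark spots well above background. The authors' series value table is a linear intensity, and at least 99.4% of its probes lie within 2% of the processed signal. Outlier spots (264 to 539 an array) and control spots were left out, spots of a probe were averaged, and log2 values were taken minus the 75th percentile over the 16211 probes above background on all arrays. Probes were named by accession (21102), symbol (6691) or synonym (271) in the RefSeq table, or kept the file's name (17534). A probe well above background on at least 5 arrays was tested, and the brightest stands for its gene. All 15 arrays entered 1 fit with limma 3.58.1 in R 4.3.3, with fraction as group and experiment as block, two-sided, adjusted after Benjamini-Hochberg over 17096 features. The titles' replicate number marks the experiment. Deviations from the group mean correlated with a median of 0.58 between arrays of an experiment (0.04 to 0.79, n = 15 pairs). Between experiments the median was -0.13 (n = 60). Subtracting the group mean itself pushes that value below 0, so it is no separate evidence for the pairing. P-values measure the spread between these arrays, since it is not stated which animals stand behind them.

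The 10 members, the gene lists and the 6 arrays rich in acinar transcripts were chosen with earlier results of these data known. The named genes are the 10 members; of each other cytokinesis list the genes that passed, at most 6, or else the brightest 2; Cdk1, Mki67, Alb, Clec4f, Colec11, Stab2 and Cpa1; and the 5 genes most correlated with the members' median. Further genes are marked in the text as named after their values were seen. In 20 alternatives the scaling, background correction, filter, value table, probe rule, floor, block, slide, replicates, acinar arrays and age range were changed. The fit was tested on simulated data. No genome annotation of rn4 was used here, so the part of a gene under a probe is not stated. Promoter sequences are from RefSeq (GRCr8).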

Additional observations from a re-analysis of the deposited data

Results flagged for a closer look

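In 5 of the 7 genes that rose, the 8c array of experiment 2 lay far below the other 4. Ect2 was at -5.35 there (the next lowest 8c value was -2.80), Prc1 at -5.37 (next -2.90), Racgap1 at -4.68 (next -3.33) and Kif20a at -3.81 (next -1.61). Cep55 was at -6.60 on that array, not well above background (next -4.06). For Rhoa, the 2c array of experiment 4 was high at -0.68, with the next highest 2c value at -0.92. These are 6 of 24 sets of gene and fraction, and chance alone marks about 1 set in 20; the 5 low values come from 1 array and are not independent. That array comes from rats of 14 weeks and had the highest acinar markers of the 8c arrays (median level 4.78 against -6.88 to 0.20 on the other 4). Without experiment 2 all 7 genes still passed in both 8c comparisons.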

How the results depend on the processing

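The 7 genes that rose in 8c were higher in 8c than in 2c, and than in 4c, in all 135 values each that 20 alternatives gave for them, and 83 of each 135 passed. All 7 passed in both comparisons under quantile, median and all-probe scaling, with the value table and with the mean of probes. With dim arrays at the floor Kif23 was lost against 4c (adjusted p = 0.0594, limma), and with no filter Racgap1 against 2c (adjusted p = 0.0729). The cause of changes was not tested, except that fewer arrays or features were tested where these are named.

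Members higher in 8c than in 2c and in 4c were 3 and 3 under normexp, 3 and 4 with the slide as block, and 2 and 2 with only probes above background on all arrays, where 3 members are tested. They were 0 and 0 without the replicate block, within slide 1, within slide 2, without the acinar arrays and at 5 or 6 weeks. Leaving out 1 experiment gave 4 to 7 in both.

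All features that passed (404 in 8c against 2c, 218 in 4c against 2c, 111 in 8c against 4c) numbered 184, 53 and 65 under normexp, 220, 132 and 40 above background on all arrays, and 39, 3 and 0 without the replicate block (500 at an unadjusted p under 0.05 in 8c against 4c). They were 91, 5 and 41 with the slide as block, 0, 0 and 1 within slide 1, 0, 0 and 0 within slide 2, 0, 0 and 0 without the acinar arrays, and 9, 0 and 1 at 5 or 6 weeks (850 to 2400 at an unadjusted p under 0.05 wherever one of these counts is 0). With no filter 230 and 0 passed in 8c and 4c against 2c (3379 at an unadjusted p under 0.05 in 4c), and quantile scaling gave 145 in 4c against 2c. Leaving out 1 experiment gave 103 to 275, 3 to 185 and 51 to 128, the lowest without experiments 5, 5 and 1. The share of higher among the calls in 8c against 2c moved with scaling: 138 higher and 266 lower as reported, 177 and 203 under quantile, 187 and 217 under median and 225 and 193 under all-probe scaling. The median over all features moved to -0.11 under normexp and -0.15 with no filter in 8c against 2c.

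Signs turned for small 4c against 2c values. Kif20a was 0.098, 0.024, 0.061 and 0.059 under quantile, median and all-probe scaling and the floor, 0.65 within slide 2, 0.41 without acinar arrays and at 5 or 6 weeks, and -0.32 to 0.23 with 1 experiment left out (above 0 without experiment 1, 2 or 3). Kif23 was -0.14 under normexp, -0.11 with the floor, -0.26 within slide 2, -0.018 without acinar arrays and at 5 or 6 weeks, and -0.069 to 0.26 with 1 experiment left out (below 0 without experiment 2, 3 or 4). Rhoa was 0.030 within slide 1 and Cep55 0.047 within slide 2. In 8c against 4c Rhoa was 0.0086 within slide 2 and -0.094 to 0.017 with 1 experiment left out (above 0 without experiment 3). Signal over background limits Aurkb, Cit, Kif23 and Cep55 most.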
